A study of Mus musculus with 6 samples.

Results

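MERVL, a murine endogenous retrovirus of the ERVL family, and the MT2 long terminal repeats (LTRs) were followed in RNA of mouse embryonic fibroblasts with and without β-actin. The repeat names were searched for those beginning with MERVL, MT2_Mm, MT2A, MT2B or MT2C, which gave 8 rows of 1336, and all 8 had enough counts to be tested. They were the internal regions MERVL-int and MERVL_2A-int and the LTRs MT2_Mm, MT2A, MT2B, MT2B1, MT2B2 and MT2C_Mm. Each row is the sum of the reads given to one repeat name over the whole genome, without positions. KO fibroblasts, which lack both copies of the β-actin gene Actb (the protein forms filaments in the cytoplasm and also occurs in the nucleus), gave 3 libraries. WT fibroblasts, with Actb intact, gave the other 3 libraries. Both were BALB/c cells from embryos of day 10.5, and no agent or second allele is named for either. Total RNA was sequenced after ribosomal RNA (rRNA) depletion, and the labels do not say whether a replicate was one embryo or one culture, so p-values measure the spread between these libraries.

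MERVL has a retroviral internal region flanked by MT2_Mm LTRs, which carry its promoter. In mouse embryos the element is transcribed for a short time after fertilization, when the zygotic genome is switched on, and the transcription factor DUX binds MT2_Mm. Single MT2 LTRs can also serve as promoters or first exons of neighbouring genes at that stage. In somatic cells the element is held silent by repressive chromatin, and MT2A, MT2B and MT2C are older LTRs of related elements. The files hold repeats and structural RNA and no protein-coding gene, so neither fibroblast markers nor Dux, Zscan4 or Actb RNA were analysed here. In bulk RNA, fewer cells with a transcript and less of it per cell cannot be told apart.

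The libraries differed most in rRNA, which took from 52.9% to 84.8% of the counts in KO and from 32.4% to 84.1% in WT. Totals lay between 7708630 and 19288620 counts, and the counts outside rRNA between 2859992 and 5210011. Levels are therefore given as CPM over an effective library size that follows the bulk of repeat rows and not the total (normalized CPM). Row lengths and copy numbers are not in the files, so levels are compared between libraries and not between rows.

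MERVL-int, the body of the element with its gag and pol sequences, was detected in all 6 libraries, and KO and WT did not differ beyond the spread of their replicates. It had 971, 1908 and 1431 counts in KO replicates 1, 2 and 3, against 2271, 812 and 1464 in WT replicates 1, 2 and 3. In normalized CPM these were 119, 94.8 and 96.5 in KO, against 94.2, 106 and 102 in WT. KO replicate 1 stood above all other libraries, and the remaining KO libraries lay within the WT range, so the groups overlapped. KO over WT, the log2 fold change was 0.04 (SE 0.09), which did not pass edgeR's quasi-likelihood test after Benjamini-Hochberg adjustment (adjusted p = 0.869). Its 95% interval ran from 0.890 to 1.18 times the WT level. The log2 fold change was -0.076 without KO replicate 1 and -0.0096 without WT replicate 1, so the direction rested on single libraries. Scaled by total counts it was at -0.35, where the median of all rows was at -0.36.

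MERVL_2A-int, an internal region with a row of its own, did not pass either. It was at 313, 310 and 276 normalized CPM in KO, against 289, 300 and 293 in WT. The KO values lay on both sides of the WT values. The log2 fold change was 0.03 (SE 0.07; edgeR adjusted p = 0.873, 95% interval 0.917 to 1.13 times WT), and it was -0.0097 without KO replicate 1. On the total-count scale it was at -0.31, which is 0.044 above the median of all rows there. The ratio between the internal regions needs no scaling. There were 2.63, 3.27 and 2.86 MERVL_2A-int counts for each MERVL-int count in KO, against 3.07, 2.84 and 2.88 in WT, again without separation.

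**Figure D1:**
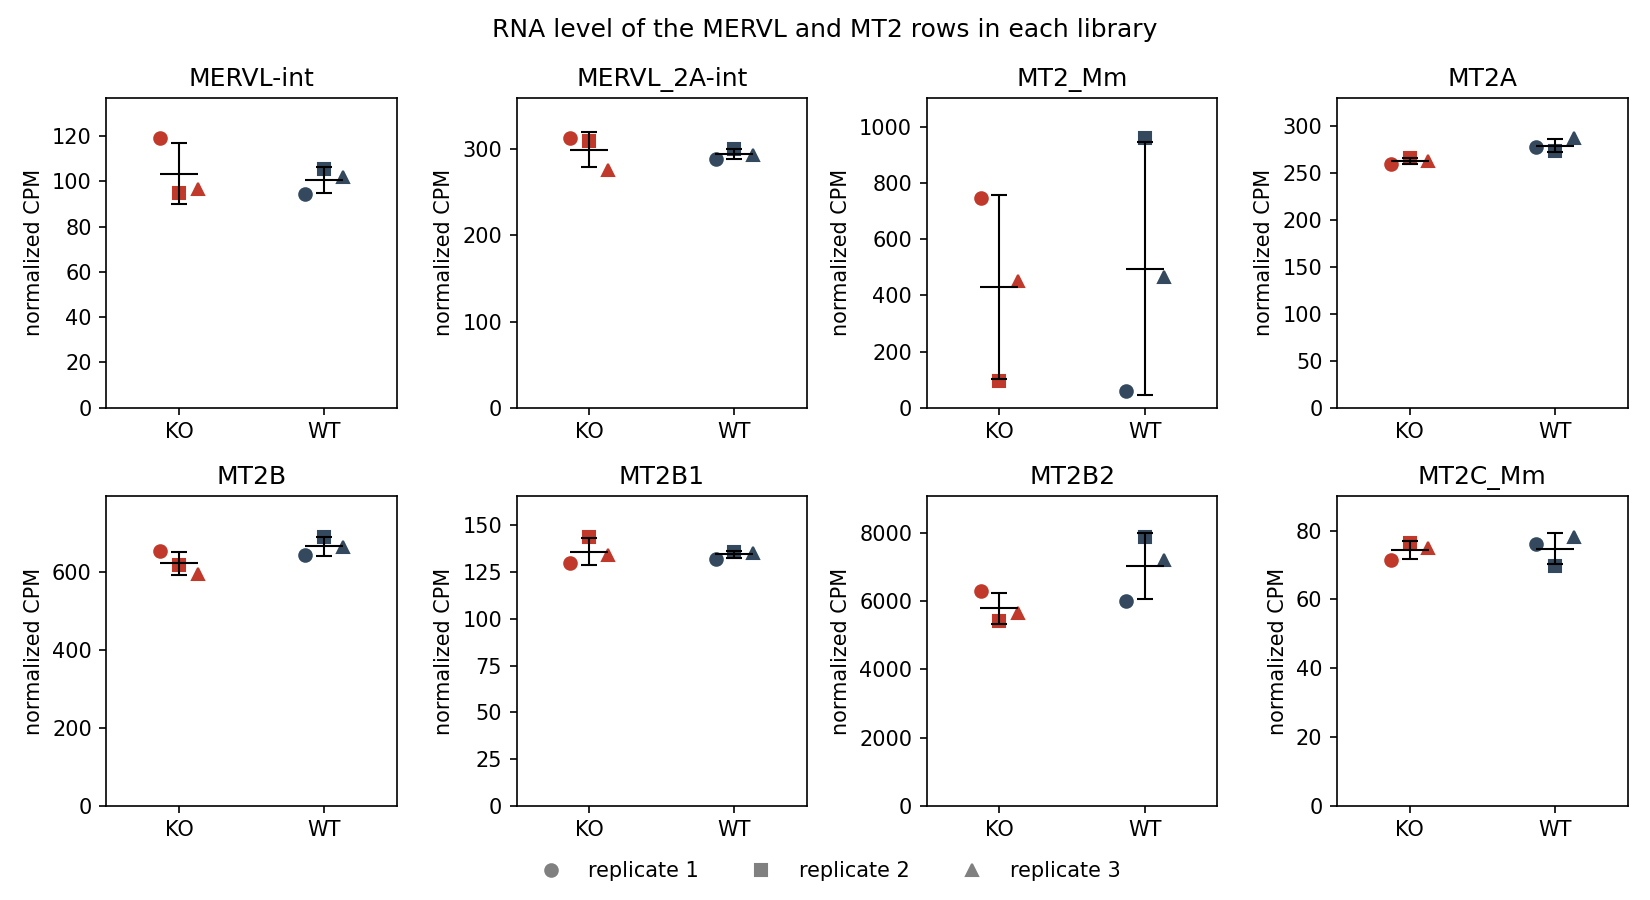
Normalized CPM (vertical axes, from 0) of the 8 rows in KO and WT, with 1 point per library (circle, square and triangle for replicates 1, 2 and 3) and the mean with SD (bars, n = 3). MT2_Mm spreads from 59.0 to 959 within WT, whereas the 3 KO libraries lie below the 3 WT libraries in MT2A alone among the 8 rows.

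MT2_Mm, the LTR that drives MERVL in the embryo, varied more between libraries of one genotype than any other of the 8 rows. It had 6084, 1881 and 6674 counts in KO replicates 1, 2 and 3, against 1421, 7374 and 6693 in WT replicates 1, 2 and 3. In normalized CPM these were 745, 93.4 and 450 in KO, against 59.0, 959 and 466 in WT. The highest library had 16.3 times the level of the lowest, where the other 7 rows spanned 1.11 to 1.46 times. Counting error was small beside this spread. In WT replicate 1 MT2_Mm was at 273 CPM of the counts outside rRNA, with an exact (Clopper-Pearson) 95% interval of 259 to 287 that covers counting error only, and in WT replicate 2 it had 2578. The log2 fold change of KO over WT was -0.20 (SE 0.92; edgeR adjusted p = 0.932). The 95% interval, 0.202 to 3.74 times WT, includes large changes in either direction, and the sign turned without KO replicate 2 (0.27) or WT replicate 2 (0.71).

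The order of the libraries in MT2_Mm was close to their order in rRNA. This relation was known from earlier results on the same libraries, so it is described here without a test. Across all 6 libraries the log2 level of MT2_Mm and the log2 level of rRNA had a Pearson r of 0.99 and a Spearman rho of 0.89. Both levels share the effective library size as divisor. With both levels as CPM of the counts outside rRNA, which is again a shared divisor, the r was 0.98. Without WT replicate 1 and KO replicate 2, the libraries farthest from the median rRNA level, r was 0.95 over 4 libraries, and with the genotype means removed it was 0.99. The slope of 0.96 on log2 scales is close to a fixed proportion: rRNA itself spanned 19.3 times from library to library. MT2_Mm followed the large-subunit and small-subunit rows LSU-rRNA_Hsa and SSU-rRNA_Hsa alike (r = 0.99 each) and the 5S row, which has 316 to 693 counts per library, a little less closely (r = 0.93).

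**Figure D2:**
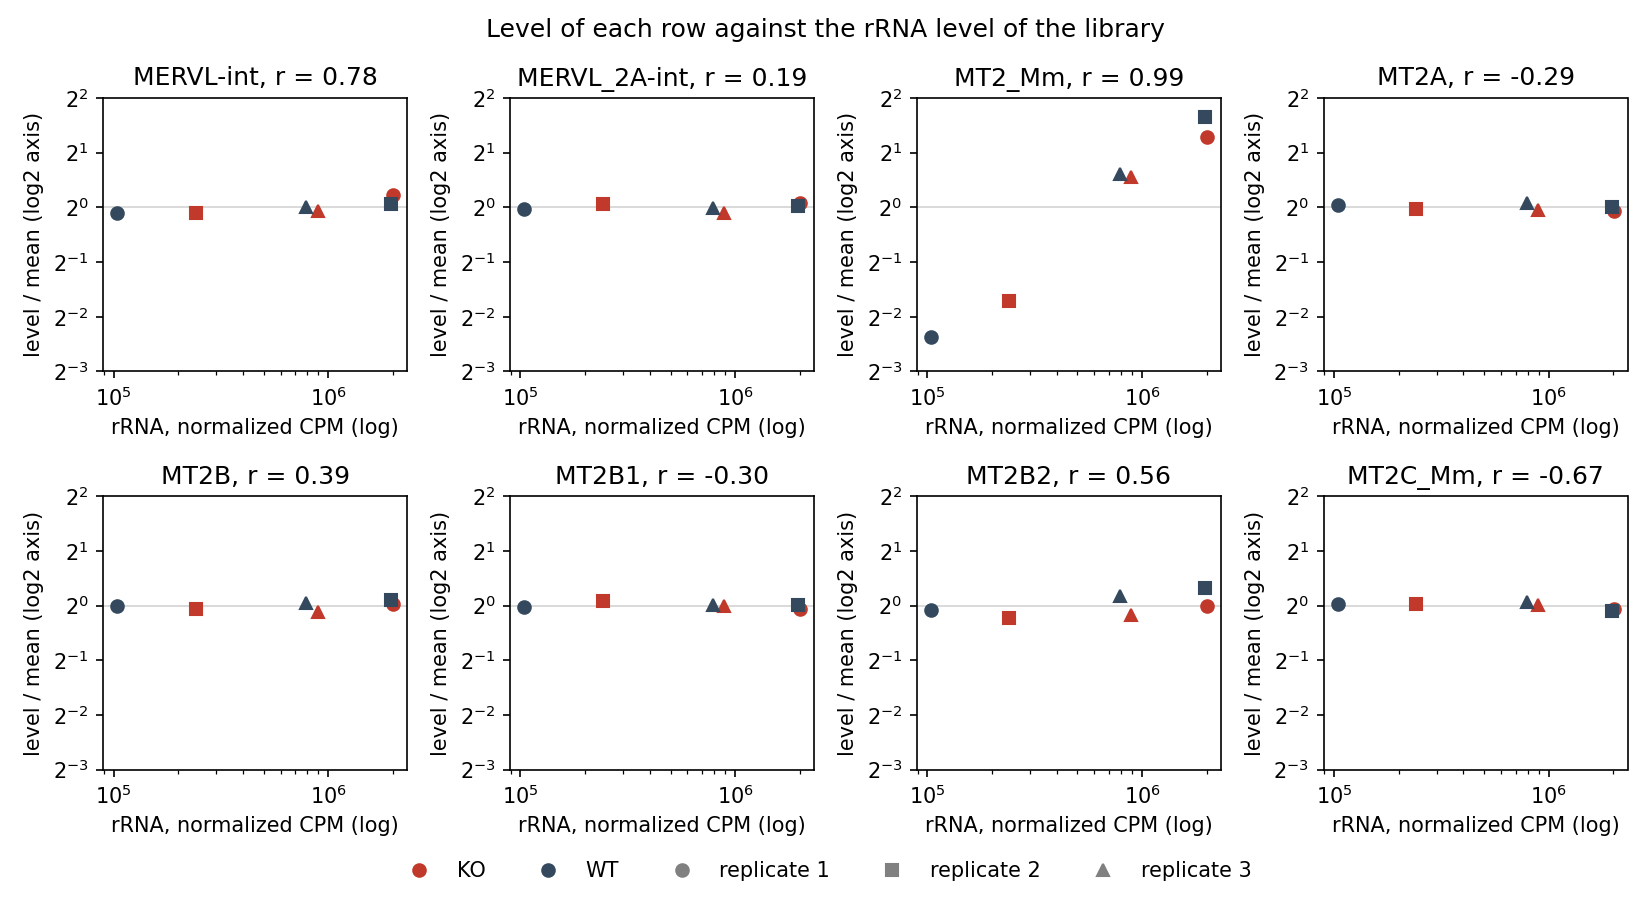
Level of each row divided by its geometric mean over the 6 libraries (vertical log2 axes) against the rRNA level of the library in normalized CPM (horizontal log axes), with KO in red, WT in dark blue and symbols for replicates. MT2_Mm climbs with rRNA at r = 0.99, and the other 7 rows stay close to their mean across the whole rRNA range.

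The MERVL body did not share this range. In normalized CPM MERVL-int had an r of 0.78 with rRNA (exact two-sided permutation p = 0.0556, adjusted over the 8 rows p = 0.222) and a rho of 0.94 (exact permutation p = 0.0167, adjusted p = 0.133), but a slope of only 0.06 on log2 scales. This relation depended on the scaling. Per count outside rRNA, MERVL-int was lower in KO replicate 1 (971 of 2926131), high in rRNA, than in KO replicate 2 (1908 of 4333091), low in rRNA. The same held for WT replicate 2 (812 of 2859992) beside WT replicate 1 (2271 of 5210011). The count ratio of MT2_Mm to MERVL-int moved from library to library: 6.27, 0.986 and 4.66 in KO replicates 1, 2 and 3, against 0.626, 9.08 and 4.57 in WT replicates 1, 2 and 3. The libraries lowest in rRNA in each genotype, KO replicate 2 and WT replicate 1, were those with under 1 MT2_Mm count per MERVL-int count. The sources used here do not state how reads matching more than one row were shared out, and whether rRNA reads enter the MT2_Mm row was not tested. Of the 1193 rows tested, MT2_Mm ranked 11 by its r with rRNA. It was the only one of 104 tested ERVL rows with an r above 0.9, against 20 rows (1.68%) of the whole table. Those 20 include the 3 rRNA rows themselves, of which SSU-rRNA_Hsa and LSU-rRNA_Hsa ranked above MT2_Mm. Within the ERVL family MERVL-int came next at 0.78, and MLT2C2, an older LTR, was the highest outside the 8 rows at 0.75.

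Judged against rRNA, MT2_Mm was lower on average in KO but did not pass. There were 372, 387 and 505 MT2_Mm counts per 1000000 rRNA counts in KO replicates 1, 2 and 3, against 569, 489 and 589 in WT replicates 1, 2 and 3. KO replicates 1 and 2 lay below all WT libraries, and KO replicate 3 lay above WT replicate 2. The means were 421 ± 72.7 in KO and 549 ± 52.9 in WT (SD, n = 3 each; exact two-sided permutation p = 0.2, where 3 against 3 libraries cannot go below 0.1). With the log2 rRNA level as a covariate in edgeR the log2 fold change was -0.36 (SE 0.11) and just missed the threshold (edgeR adjusted p = 0.0559), at 0.660 to 0.914 times WT by its 95% interval. In that fit it passed when KO replicate 3 was left out, at -0.52 (edgeR adjusted p = 0.000688), and in no other fit without a single library, at -0.25 to -0.47.

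**Figure D3:**
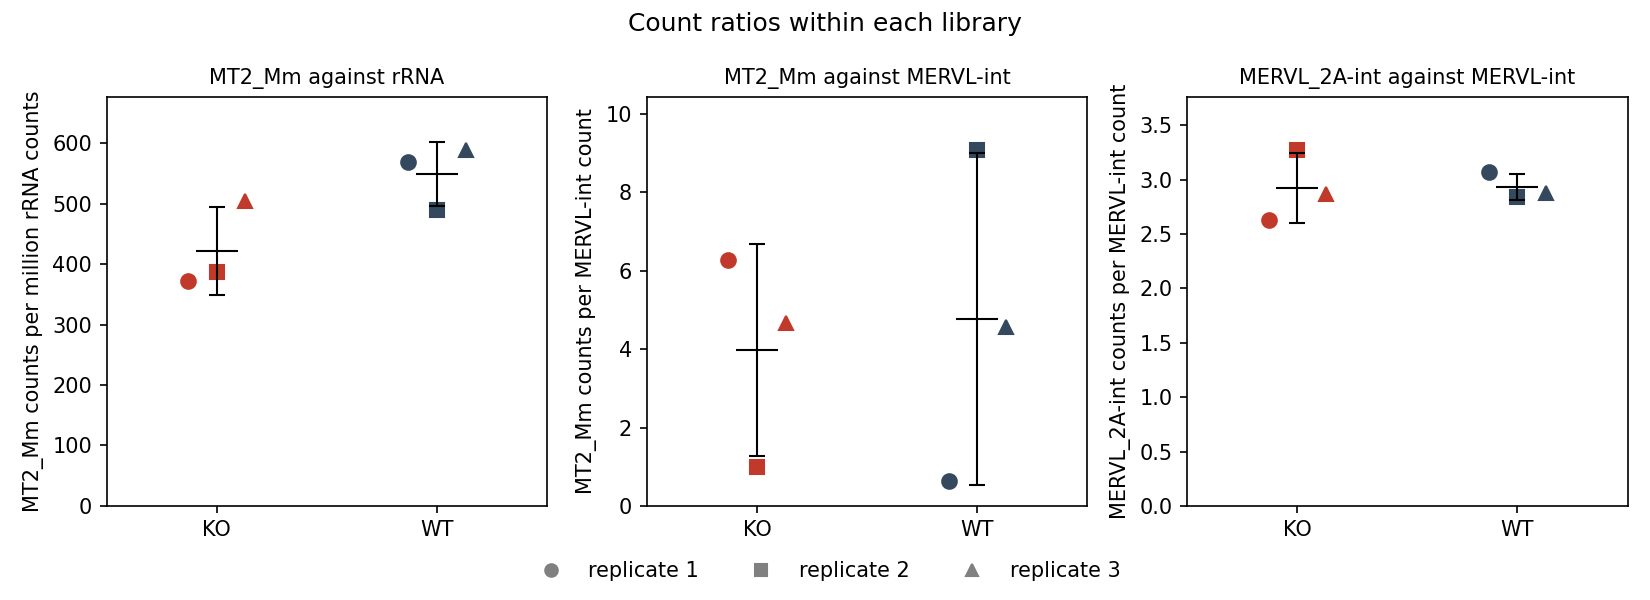
Count ratios within each library in KO and WT (vertical axes, from 0), with 1 point per library and the mean with SD (n = 3). MT2_Mm per 1000000 rRNA counts spans 372 to 589, MT2_Mm per MERVL-int count 0.626 to 9.08, and MERVL_2A-int per MERVL-int count 2.63 to 3.27.

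The older LTRs MT2A, MT2B, MT2B1 and MT2C_Mm were steady rows. MT2A was at 259, 265 and 262 normalized CPM in KO, against 277, 273 and 286 in WT. All KO libraries lay below all WT libraries, by a small margin, and MT2A was the only one of the 8 rows without overlap. Over all 1193 tested rows the groups did not overlap in 25.8%, and KO lay below WT in 13.4% and above it in 12.4%. The log2 fold change was -0.09 (SE 0.05; edgeR adjusted p = 0.407). The 95% interval ran from 0.864 to 1.02 times WT.

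MT2B had 654, 617 and 595 normalized CPM in KO, against 642, 690 and 664 in WT. KO replicate 1 lay between the WT libraries and the other KO libraries below them. The log2 fold change was -0.10 (SE 0.07; edgeR adjusted p = 0.469). MT2B1 had 130, 144 and 134 in KO, against 132, 136 and 135 in WT, with KO on both sides of WT. For MT2B1 KO over WT came to 0.02 on the log2 scale (edgeR adjusted p = 0.902, 95% interval 0.929 to 1.10 times WT). On the total-count scale it was at -0.30, or 0.061 above the median of all rows. MT2C_Mm, at 71.4, 76.4 and 75.1 in KO and 76.2, 69.8 and 78.2 in WT, differed by -0.01 on the log2 scale (edgeR adjusted p = 0.940, 95% interval 0.911 to 1.08 times WT), and the sign turned in 5 of 16 alternatives. Among the 8 rows MT2C_Mm had the lowest r with rRNA, at -0.67 (exact permutation p = 0.124, adjusted p = 0.330) with a slope of -0.02.

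MT2B2 held most of the counts of the group and was lower on average in KO, without passing unless the rRNA level was taken into the fit. It had 51256, 108742 and 83906 counts in KO replicates 1, 2 and 3, against 144314, 60613 and 103449 in WT replicates 1, 2 and 3. These were 6280, 5400 and 5660 normalized CPM in KO, against 5988, 7883 and 7200 in WT. WT replicate 1 lay inside the KO range and the other WT libraries lay above it. The means were 5780 ± 452 in KO and 7024 ± 960 in WT (SD, n = 3 each), or -0.28 on the log2 scale (SE 0.14; edgeR adjusted p = 0.309). The 95% interval ran from 0.656 to 1.03 times WT.

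In normalized CPM MT2B2 was ordered within each genotype as rRNA was, but this depended on the scaling. As a share of the counts outside rRNA the order was the reverse. That share was 1.75%, 2.51% and 2.12% in KO replicates 1, 2 and 3, against 2.77%, 2.12% and 2.55% in WT replicates 1, 2 and 3. Set side by side by rRNA rank in normalized CPM, KO replicate 1 had 0.797 of the level of WT replicate 2 (84.8% and 84.1% rRNA), KO replicate 3 had 0.786 of that of WT replicate 3 (77.0% and 73.7% rRNA), and KO replicate 2 had 0.902 of that of WT replicate 1 (52.9% and 32.4% rRNA). KO was the lower library in all 3 pairings, which were chosen after the data were seen, and this also held for MT2A and MT2B, while MT2_Mm was at 0.777, 0.966 and 1.58. Of all 1193 rows, 22.4% were lower in KO in all 3 pairings and 23.8% higher. Pooled over genotypes, MT2B2 in normalized CPM had an r of 0.56 with rRNA (exact permutation p = 0.231, adjusted p = 0.461), and with the genotype means removed 0.98. With the rRNA level as a covariate MT2B2 passed, at -0.31 on the log2 scale (SE 0.05; edgeR adjusted p = 0.00251, 95% interval 0.743 to 0.870 times WT). In that fit 109 of 1193 rows passed, 9.14% (5.78% lower in KO), and MT2B2 was the only one of the 8. The call was lost without WT replicate 2, at -0.30 (edgeR adjusted p = 0.0594), and was kept in each fit without any other single library, at -0.30 to -0.35.

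MT2B2 also set the total of the group. It took 73.3% to 79.2% of the counts of the 8 rows and 57.7% to 63.0% of all ERVL counts, depending on the library. The 8 rows together made up 2.39%, 3.25% and 2.83% of the counts outside rRNA in KO replicates 1, 2 and 3, against 3.50%, 2.80% and 3.27% in WT replicates 1, 2 and 3. The KO and WT ranges overlapped. In normalized CPM the sum was 7707 ± 796 in KO and 9066 ± 1435 in WT (SD, n = 3 each), and without MT2_Mm it was 7277 ± 484 in KO and 8572 ± 992 in WT. Next to MT2B, the LTR it was most like among the 8 rows (r = 0.90, n = 6), MT2B2 had 9.60, 8.75 and 9.52 counts per MT2B count in KO, against 9.32, 11.4 and 10.8 in WT, which overlapped.

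Taking the 8 rows as a list, none passed in the comparison of KO with WT, where 5.78% of all 1193 rows did (2.18% higher and 3.6% lower in KO; edgeR adjusted p below 0.05). None of the 8 had an unadjusted p under 0.05 in edgeR, where 249 of all 1193 rows (20.9%) did. DESeq2 and limma-voom also called none after adjustment, and in both MT2B2 alone had an unadjusted p under 0.05. Of the 8 log2 fold changes 3 were above 0 and 5 below, with a median of -0.05 beside 0.01 over all rows. On the total-count scale, which moved the median of all rows to -0.36, all 8 were below 0. Relative to that median, MT2B2, MT2A, MT2B and MT2C_Mm stayed lower (-0.21, -0.09, -0.09 and -0.02), whereas MT2_Mm, MT2B1, MERVL_2A-int and MERVL-int stood above it (0.18, 0.061, 0.044 and 0.0084). The median within-genotype coefficient of variation was 4.89% for the 8 rows and 10.5% for all rows. It was 5.73% for the 32 oocyte and early-embryo repeats and 12.0% for the 96 other ERVL rows tested, both described below. These lists were not matched for count level. MT2_Mm, at 83.9%, stood at percentile 99.2 of all rows in that measure, and MT2A, at 1.98%, at percentile 1.76.

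**Figure D4:**
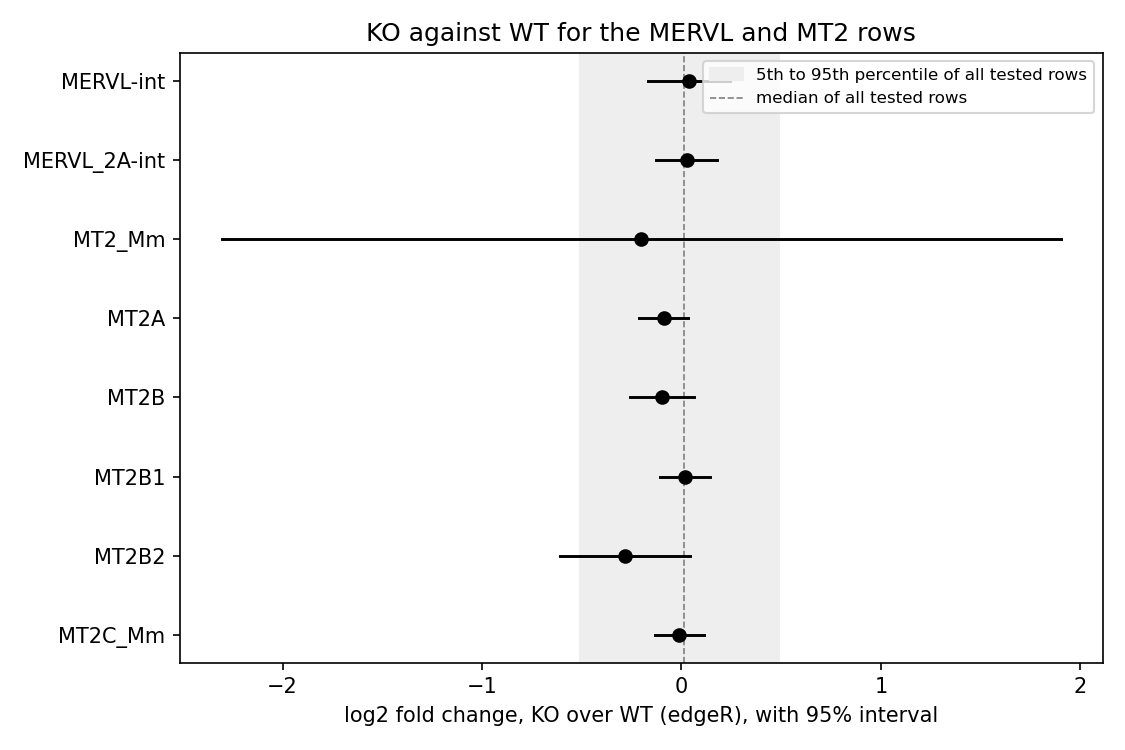
Log2 fold change of KO over WT with its 95% interval (edgeR) for the 8 rows, with the 5th to 95th percentile of all 1193 tested rows shaded (-0.51 to 0.49) and their median dashed. Every interval includes 0, that of MT2_Mm reaches from -2.31 to 1.90, and that of MT2B2 from -0.61 to 0.05.

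The rest of the ERVL family had few calls as well. Of 102 other ERVL rows, 96 were tested, 1 was higher in KO and none was lower, with a median log2 fold change of 0.04, and 17 (17.7%) had an unadjusted p under 0.05, beside 20.9% of all rows. LTR80A, an old LTR at 2.05 ± 0.241 normalized CPM in KO and 0.517 ± 0.223 in WT (SD, n = 3 each), was the row that passed (log2 fold change 1.79, edgeR adjusted p = 0.0139). LTR80A had few counts, and a filter at a mean of 50 counts removed it. It did not pass without KO replicate 2 (1.83), KO replicate 3 (1.84) or WT replicate 3 (1.87). LTR82A (0.55), LTR33B (0.53) and MER76-int (1.53) did not pass in edgeR, at adjusted p = 0.0571, 0.0590 and 0.0619.

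Other repeats known from mouse oocytes and early embryos were read beside MERVL. This list held the MaLR LTRs MTA_Mm, MTB, MTC and ORR1A, the LINE-1 rows L1MdTf and L1MdA, IAPEz and IAPLTR1 of the intracisternal A particles, and the major satellite GSAT_MM, 32 rows in all. Of these, MTB, L1MdA_I and L1MdA_VI followed rRNA more closely still than MT2_Mm. In edgeR 1 was higher in KO and none lower, with a median log2 fold change of 0.02 and 7 unadjusted p under 0.05 (21.9%, beside 20.9% of all rows). The row that passed was L1MdA_V, a LINE-1 subfamily, at 87.5 ± 7.16 normalized CPM in KO and 72.8 ± 1.57 in WT (edgeR adjusted p = 0.0462), and it did not pass when any single library was left out (0.19 to 0.30). On the total-count scale it was at -0.14, or 0.21 above the median of all rows. IAPEz-int was at 374 ± 12.2 in KO and 439 ± 19.2 in WT and did not pass (edgeR adjusted p = 0.0743), nor did L1MdA_III (0.24, adjusted p = 0.152) and IAPLTR1_Mm (-0.18, adjusted p = 0.167). MTA_Mm, an LTR known from oocytes, was at 396 ± 7.83 in KO and 385 ± 16.9 in WT and did not pass (edgeR adjusted p = 0.766).

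Rows outside the group that ran most like its members came from other families. By Pearson r of log2 normalized CPM over 6 libraries, MT2_Mm was most like L1MC4a, RLTR25A, L1_Mur3, MuRRS4-int and MTB, a LINE-1, ERVK, LINE-1, ERV1 and MaLR row, all at r = 0.99. Each of those 5 rows had an r of 0.986 or more with rRNA, as MT2_Mm did. MERVL-int was most like X6a_DNA, a DNA transposon (r = 0.99), L1M1 and MMERVK9E_I-int (both 0.98), BLACKJACK (0.95) and UCON76 (0.92), and none of these passed. MT2B2 was most like MMVL30-int, the body of the VL30 retrotransposon, and ID_B1, a B4 SINE (both 0.99), then MamRTE1 (0.99), MER45C (0.98) and 7SK, a small nuclear RNA of transcription control (0.97). MMVL30-int was at 2187 ± 196 in KO and 2749 ± 366 in WT and did not pass (edgeR adjusted p = 0.188). These r values are descriptions over 6 libraries that share the same scaling and the same rRNA shares.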

How the data were processed

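RNA of 3 KO and 3 WT fibroblast libraries was prepared with a TruSeq Ribo-Zero kit, per the labels. FastQC 0.11.5, Trimmomatic and Bowtie2 and the builds mm10 and GRCm38 are named in the submitters' processing notes. In the sources used here, the counting tool, the repeat annotation and the use of strand are not given. Values are the estimated count the authors deposited per repeat name and library, fractional per the file names, without normalization, and all values were whole. A read from a copy inside a gene looks the same as one from a transcript that begins in the copy.

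Groups and replicate numbers come from the sample titles. In R 4.3.3 with edgeR 4.0.16, filterByExpr kept 1193 rows and removed 143, TMM gave effective library sizes, and genotypes were compared with the quasi-likelihood test, adjusted over all rows by Benjamini-Hochberg at 0.05. Standard errors (SE) came from the test statistic. The fit was tested on simulated data. DESeq2 1.42.0 and voom in limma 3.58.1 were alternatives, beside other scalings, filters, a replicate block, the rRNA level as covariate and leaving out libraries. Likeness used log2 CPM with prior count 2. Named rows were the 8 members, the 3 rRNA rows, the 5 rows most like MT2_Mm, MERVL-int and MT2B2, and the 4 smallest p of each comparison list, with MTA_Mm and MLT2C2 added after their values were seen. The members and lists were chosen with earlier results of these data known. MT2_Mm per rRNA count, the pairings by rRNA rank and the covariate fits without single libraries were added after seeing the data. Tested rows had a median of 107 to 350 counts per library. Over all tested rows, the rRNA rows included, no pair of replicates agreed within sampling noise (chi-square per degree of freedom at least 489). That statistic was not split by row, so it includes the differences in rRNA share.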

Additional observations from a re-analysis of the deposited data

How the results depend on the processing

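The count of calls over all rows, 69, moved to 0 with total counts (edgeR, 3 rows at an unadjusted p under 0.05), 24 with a replicate block, 109 with the rRNA covariate and 9 without WT replicate 1 and KO replicate 2, and lay between 22 and 69 when single libraries were left out. In these settings the calls among the 8 rows stayed at 0 except for 1, MT2B2, with the rRNA covariate. When single libraries were left out of the covariate fit, MT2_Mm passed beside MT2B2 without KO replicate 3 (edgeR adjusted p = 0.000688 and 0.000937). Without WT replicate 2 neither of them passed. Same-numbered libraries did not deviate together (correlations of -0.44, -0.39 and 0.02; the highest, 0.51, was between KO replicate 2 and WT replicate 1), the labels tie no number to a litter or day, and the block changed no call among the 8 rows but ended those of LTR80A (1.90) and L1MdA_V (0.26). MT2A, MT2B and MT2B2 kept their direction in each of the 16 other settings. The others changed sign in some: MT2_Mm with the replicate block (0.024), with limma-voom (0.14) and in a range of -0.87 to 0.71 without single libraries, MT2C_Mm without rRNA rows (0.00061), with the rRNA covariate (0.0011) and from -0.056 to 0.032 without single libraries. With total counts, which moved the median of all rows to -0.36, MERVL-int (-0.35), MERVL_2A-int (-0.31), MT2B1 (-0.30) and, outside the group, L1MdA_V (-0.14) lay below 0, but none lay below that median. MERVL-int, MERVL_2A-int and MT2B1 lay between -0.076 and 0.097, -0.0097 and 0.078, and -0.027 and 0.044, in that order, without single libraries. Without WT replicate 1 and KO replicate 2, MERVL_2A-int was at -0.00032 and MT2B1 at -0.029. The cause of these changes was not tested. The r of MT2_Mm with rRNA, 0.99, was 0.95 without the 2 libraries farthest from the median rRNA level. The log2 difference in the summed level, -0.23, moved by less than the spread of replicates, to -0.05 to -0.23 with other sums and divisors and to -0.35 to -0.12 without single libraries. The rarest of the 8 rows, MT2C_Mm and MERVL-int, had 537 to 1837 and 812 to 2271 counts per library, and over all rows replicates of each genotype differed by more than counting error.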
